A study of Mus musculus with 18 samples.

Results

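Oxidative phosphorylation was followed through its structural genes, the 13 proteins that mouse mitochondrial DNA encodes and the nuclear genes of the 5 complexes. Members were taken by symbol among protein-coding genes: every mt- gene, Ndufab1, the Nduf genes of the a, b, c, s and v series, the Uqcr genes, Cox4 to Cox8, the Atp5 genes and Sdha to Sdhd. The pattern matched 103 of the 55414 gene entries in the table, with 102 distinct symbols, 13 of them mitochondrially encoded and 90 nuclear. The nuclear entries divide into 38 of complex I, 4 of complex II, 8 of complex III, 21 of complex IV (Ndufa4 and Ndufa4l2 included, since the NDUFA4 protein is a complex IV subunit) and 19 of complex V. A filter on low counts kept 12 mitochondrially encoded and 85 nuclear members for testing. Those it dropped were mt-Atp8, Ndufb11b, Cox6b2, Cox8b, Cox8c and a second entry named Atp5po, listed with 0 counts in all 18 libraries.

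The libraries came from N2A (Neuro-2a) cells, an established mouse neuroblastoma line, harvested 72 h after siRNA transfection. Cells received 1 of 6 siRNAs: Scramble siRNA A or B as controls, siRNA A or B against Fmr1, which encodes the RNA-binding protein FMRP, or siRNA A or B against Zfp598, which encodes the ubiquitin ligase that recognises collided ribosomes. Each siRNA has 3 libraries (A1 to A3 and B1 to B3), so each condition has 6, and all were made from rRNA-depleted total RNA of whole cell extracts. The 3 libraries of a siRNA come from knockdowns done in triplicate, and whether these were separate passages or days is not given in the sources used here. In comparisons of single siRNAs the p-values therefore measure the spread between these transfections. Where both siRNAs of a condition are pooled, the spread also holds differences between siRNAs, and the 6 libraries are treated as independent. Every knockdown (KD) is a transient depletion in 1 cell line.

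Oxidative phosphorylation couples electron transport to ATP synthesis in the inner mitochondrial membrane. Complex I takes electrons from NADH and complex II from succinate. Complex III passes them to cytochrome c and complex IV to oxygen, while complexes I, III and IV pump the protons that drive the ATP synthase, complex V. Complex II is built from nuclear genes alone, whereas the core subunits of the other 4 complexes come from both genomes. The mitochondrial genes are transcribed as long polycistronic RNAs and translated by dedicated ribosomes inside the organelle.

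Both targets were lowered. Fmr1 stood at 15.7 to 22.0 CPM (counts scaled to a common library size) with Fmr1 siRNA A and 25.1 to 27.5 CPM with Fmr1 siRNA B, against 51.1 to 59.3 and 61.8 to 68.7 CPM with the Scramble siRNAs (pooled log2 fold change -1.43, SE 0.14, adjusted p = 1.3e-05). Zfp598 stood at 32.2 to 48.7 CPM in its 6 KD libraries and 103 to 128 CPM in the Scramble libraries (pooled log2 fold change -1.53, SE 0.10, adjusted p = 1.2e-08). Every adjusted p-value is from the quasi-likelihood test of edgeR, with Benjamini-Hochberg correction over the 17901 genes tested, and a gene is called higher or lower where that value is under 0.05. Totals ran from 7674724 to 15414590 counts per library. No source used here names molecular identifiers, so depth speaks to counting error only. The 12 N2A neuronal and sympathoadrenal markers summed to 1857 to 3669 CPM, with Nefl at 0 in 12 libraries and Nefm at 0 in 6. Embryonic stem cell markers summed to 0.203 to 1.18 CPM in 17 libraries but to 26.1 CPM in Fmr1 B1, where Nanog reached 7.42 CPM. Of the 5 fibroblast markers Lum was at 0 in all 18 libraries and Col1a2 in 15, and their sum, mostly Pdgfra, stayed at or below 19.0 CPM, as the blood markers did at or below 3.20 CPM. A single unannotated feature took 11.1% of the counts in Scramble A1, 8.83% in Scramble A3, 15.2% in Zfp598 A2 and 25.8% in Zfp598 A3, against 5.00 to 7.93% in the other 14 libraries. Counts called are given below with all libraries and without those 4. Setting them aside leaves Scramble A2 and Zfp598 A1 as lone libraries of their siRNAs, assumed to vary like the other groups. This bears on every comparison with Scramble siRNA A or Zfp598 siRNA A, the differences of effects included.

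How far a read can be assigned to a member depends on whether its sequence occurs elsewhere in the genome. On GRCm39, positions 6394 to 11042 of the mitochondrial genome recur on the reverse strand at chr1:24650616-24655265, in 3 exact blocks of 3067, 367 and 1222 letters. These blocks hold all of mt-Co2, mt-Atp8, mt-Atp6, mt-Co3 and mt-Nd4l, 347 of 348 letters of mt-Nd3, 63.6% of mt-Nd4 and 31.0% of mt-Co1. Outside them lie mt-Nd1, mt-Nd2, mt-Nd5, mt-Nd6 and mt-Cytb. The coding sequence of mt-Atp8 (chrM:7766-7969, plus strand), a small membrane subunit of ATP synthase, shows the extreme case, since every letter is in the nuclear copy; capitals mark the 43 letters that it also shares with mt-Atp6. The stretch of mt-Co1 at chrM:6344-6443 shows the edge of the copy, with the letters that the copy holds in capitals.
mt-Atp8: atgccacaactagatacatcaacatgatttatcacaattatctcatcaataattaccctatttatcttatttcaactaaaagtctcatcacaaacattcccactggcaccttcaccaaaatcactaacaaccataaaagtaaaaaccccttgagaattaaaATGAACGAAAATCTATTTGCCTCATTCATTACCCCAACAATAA
mt-Co1: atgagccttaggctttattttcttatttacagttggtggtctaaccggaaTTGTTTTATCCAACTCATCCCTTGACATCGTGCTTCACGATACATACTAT

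Among the nuclear members, Atp5mc1 (chr11:95959678-95966757), Atp5mc2 (chr15:102571295-102580787) and Atp5mc3 (chr2:73738779-73741933) encode the same mature subunit c, the protein of the proton-turning ring, behind different import peptides. They are shown because their mRNAs moved in different directions and because close copies limit the counting of 2 of them. Below are the last 228 letters of each coding sequence, stop codon included, with capitals at the positions where the 3 genes are not alike. Over this stretch 170 letters (74.6%) are shared by all 3 genes, and the pairs are 85.1% (Atp5mc1 and Atp5mc2), 79.8% (Atp5mc1 and Atp5mc3) and 78.5% (Atp5mc2 and Atp5mc3) identical. Of the windows of 100 letters along the transcript, 65.3% of those of Atp5mc1 and 87.5% of those of Atp5mc2 occur elsewhere in GRCm39, against 0 for Atp5mc3.
Atp5mc1: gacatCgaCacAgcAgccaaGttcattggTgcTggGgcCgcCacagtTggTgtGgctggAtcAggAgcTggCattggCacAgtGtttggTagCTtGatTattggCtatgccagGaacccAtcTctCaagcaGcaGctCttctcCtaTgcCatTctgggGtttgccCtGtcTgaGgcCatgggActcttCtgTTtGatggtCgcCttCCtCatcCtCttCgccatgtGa
Atp5mc2: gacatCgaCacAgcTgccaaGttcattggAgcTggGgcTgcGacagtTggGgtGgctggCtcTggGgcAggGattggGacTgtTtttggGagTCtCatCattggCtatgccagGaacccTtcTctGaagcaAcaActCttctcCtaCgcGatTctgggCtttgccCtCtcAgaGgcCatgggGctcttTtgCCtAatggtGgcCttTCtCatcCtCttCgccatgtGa
Atp5mc3: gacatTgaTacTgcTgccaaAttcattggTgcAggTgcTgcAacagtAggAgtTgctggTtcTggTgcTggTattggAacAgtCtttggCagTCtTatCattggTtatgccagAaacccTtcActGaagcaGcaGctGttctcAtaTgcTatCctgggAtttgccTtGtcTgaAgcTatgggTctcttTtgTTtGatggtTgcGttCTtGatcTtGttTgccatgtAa

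Cox7c (chr13:86189246-86195023), a small nuclear-encoded subunit of complex IV, is shown because it carried the steepest fall with siRNA B against Zfp598 and a fall of like size with siRNA A against Fmr1. All 192 letters of its coding sequence, printed in capitals, lie in windows of 100 letters that occur elsewhere in GRCm39, most often on chromosome 11, and 68.3% of such windows of its transcript do. By contrast, Ndufv2, Cox4i2, Ndufa4l2 and Ndufs1, which also recur below, have no repeated window of 100 letters.
Cox7c: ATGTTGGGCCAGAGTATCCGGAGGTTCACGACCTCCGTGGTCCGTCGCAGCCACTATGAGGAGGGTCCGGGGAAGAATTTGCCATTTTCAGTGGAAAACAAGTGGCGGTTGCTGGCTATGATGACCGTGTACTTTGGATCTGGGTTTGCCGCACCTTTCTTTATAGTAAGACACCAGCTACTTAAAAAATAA

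The mitochondrially encoded genes split by this property. In the 6 genes that lie wholly or almost wholly inside the copy, the median count per library ran from 3.5 (mt-Atp8) to 63.5 (mt-Co3). In mt-Nd4 and mt-Co1, which are partly inside, the medians were 4902 and 49752 counts, and in the 5 genes outside they were 5035 to 31354 counts. Per kilobase of transcript, mean levels were 1.86 to 6.79 CPM for the first set, 245 and 2352 CPM for the second and 382 to 1409 CPM for the third. The 6 genes together held 0.0614 to 0.258% of the mitochondrial counts, so any total over the mitochondrial genome is in effect a total over the other 7. Annotated pseudogenes of the copy were counted too. Gm28438, over the copy of mt-Nd3, had a median of 1127.5 counts, against 33.5 for mt-Nd3. Gm10222 had 368 against 16 for mt-Nd4l, and Gm28437 had 362.5 against 63.5 for mt-Co3. The others, Gm28439, Atp6-ps, Gm28661 and Gm29216, had 20.5, 25, 30.5 and 11. How multiply aligned reads were counted is not given in the sources used here, and its part in the low values of the 6 genes was not tested. The neighbouring pairs mt-Atp8 and mt-Atp6, and mt-Nd4l and mt-Nd4, also overlap, and mt-Nd6 lies on the other strand over the end of mt-Nd5, so their counts depend on a strand and overlap setting that is not stated.

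Within the 7 well-counted genes, mt-Co1, the catalytic subunit of complex IV, and mt-Nd5, a proton-pumping subunit of complex I, dominated. The share of mitochondrial counts in mt-Co1 ran from 12.7% in Zfp598 A3 to 56.8% in Scramble B3, and that in mt-Nd5 from 19.6% in Scramble B3 to 56.6% in Zfp598 A3. Together they held 66.0 to 76.4% in every library, so Scramble B3 had the highest share of the former and the lowest of the latter, and Zfp598 A3 the reverse. The next were mt-Cytb, the complex III core subunit, with a median share of 7.99%, mt-Nd6 with 6.58%, mt-Nd2 with 4.83%, mt-Nd1 with 4.01% and mt-Nd4 with 3.83%. The most abundant nuclear members per kilobase were Atp5f1b, the catalytic beta subunit of ATP synthase, at 883 CPM, and Cox4i1, the common isoform of a complex IV subunit, at 459.6 CPM. Median levels per kilobase rose from 28.0 CPM in complex I to 57.9 in complex II, 61.1 in complex III, 69.3 in complex IV and 81.2 CPM in complex V, with ranges that overlapped between complexes. Complex V held 42.6 to 49.2% of the nuclear members' CPM in every library, complex I 20.8 to 22.8%, complex IV 13.9 to 15.7%, complex III 7.96 to 10.9% and complex II 7.50 to 10.3%.

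**Figure D1:**
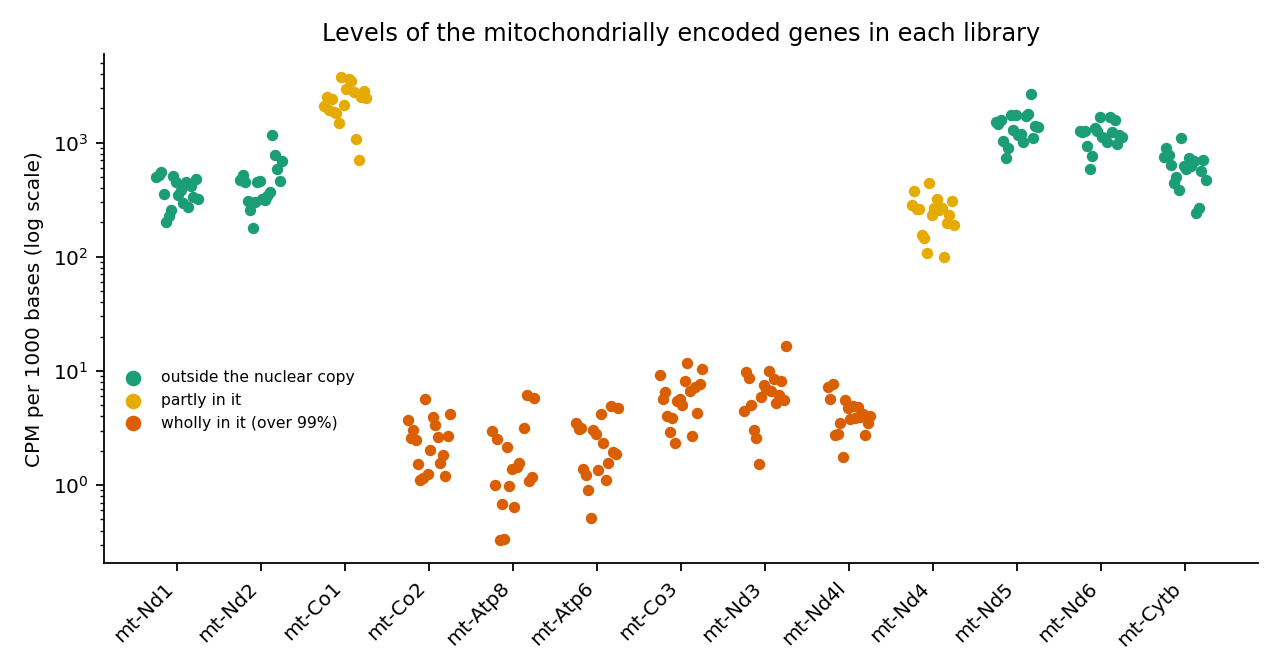
Level of each of the 13 mitochondrially encoded genes in CPM per kilobase on a log axis, in genome order, with 1 point for each of the 18 libraries and the colour giving the part of the gene that lies in the nuclear copy; mt-Atp8 in Zfp598 A1 is at 0 and is not drawn. The 6 genes inside the copy have mean levels of 1.86 to 6.79 CPM per kilobase and the other 7 of 245 to 2352.

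The first question was whether the mitochondrially encoded and the nuclear members moved apart across the 6 siRNAs. Summed over their genes, mitochondrially encoded members reached 7315, 11580 and 9338 CPM in Scramble A1, A2 and A3 and 8989, 10266 and 9502 CPM in Scramble B1, B2 and B3. The 3 Fmr1 siRNA A libraries held 8888, 9780 and 8749 CPM and the 3 of Fmr1 siRNA B 7838, 5707 and 6035 CPM. All 3 Fmr1 siRNA B libraries were below all Scramble siRNA B libraries, whereas Fmr1 siRNA A lay inside the range of Scramble siRNA A. Under Zfp598 KD the sums were 10266, 7461 and 8533 CPM with siRNA A and 8249, 9702 and 8727 CPM with siRNA B, and both groups overlapped their Scramble groups. The lowest group mean was 6527 ± 1147 CPM (SD, n = 3) with Fmr1 siRNA B and the highest 9586 ± 642 CPM with Scramble siRNA B.

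Nuclear members summed to 8853 ± 808 CPM with Scramble siRNA A and 7802 ± 444 CPM with Scramble siRNA B (SD, n = 3). With Fmr1 siRNAs A and B the sums were 8389 ± 503 and 7581 ± 581 CPM, and with Zfp598 siRNAs A and B 9403 ± 1227 and 7864 ± 510.3 CPM. Each of these KD groups overlapped the Scramble group of its letter. The ratio of the mitochondrially encoded to the nuclear sum was 1.23 ± 0.0968 with Scramble siRNA B and 0.870 ± 0.209 with Fmr1 siRNA B, whose libraries at 1.11, 0.764 and 0.735 were all below the lowest Scramble B library at 1.15. Fmr1 B1, the library with stem cell markers, is the closest of the 3 to the Scramble B range. With siRNA A the ratio was 1.08 ± 0.346 for Scramble, 1.09 ± 0.126 for Fmr1 and 0.952 ± 0.275 for Zfp598, and it was 1.13 ± 0.0808 for Zfp598 siRNA B. Scramble siRNA A alone spanned 0.784 to 1.46, wider than the distance between any 2 group means. In bulk RNA of this kind, fewer cells of a type and less RNA per cell cannot be told apart. No test was applied to these sums, which add genes of very unequal level.

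**Figure D2:**
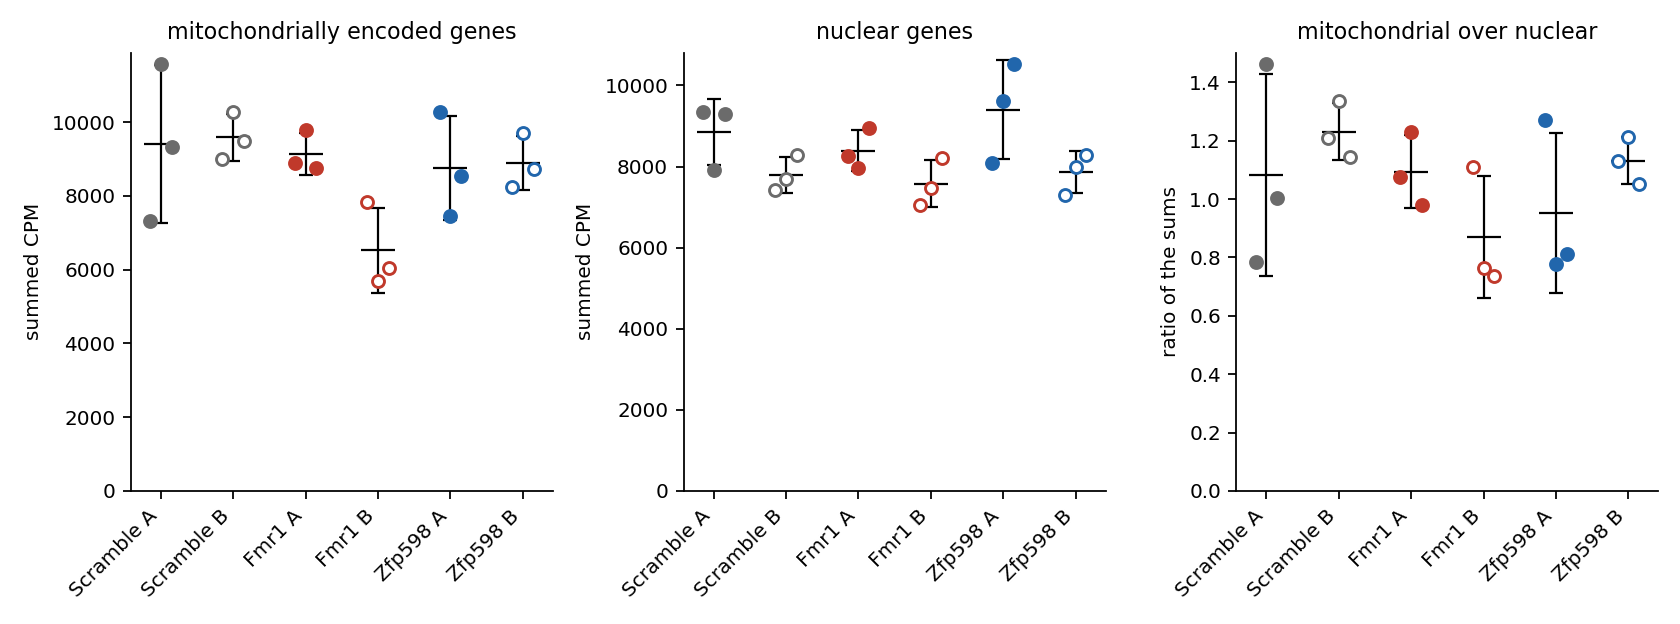
Summed CPM of the mitochondrially encoded members, summed CPM of the nuclear members and their ratio, with 1 point per library, filled for siRNA A and open for siRNA B, and black bars at the mean ± SD of the 3 libraries of a siRNA. All 3 Fmr1 siRNA B libraries have a ratio of 0.735 to 1.11, below the 1.15 to 1.34 of Scramble siRNA B.

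Pooled over both siRNAs, Fmr1 KD moved no member past the threshold. Of the 97 members tested, edgeR called 0 higher and 0 lower against Scramble KD, where 2.73% and 3.80% of all genes tested were called. 9 members, all nuclear, had an unadjusted p under 0.05, and DESeq2 called 0 higher and 2 lower. The median log2 fold change was -0.15 over the mitochondrially encoded and -0.06 over the nuclear members, beside 0.00 over all genes. By complex, the nuclear medians lay between -0.09 (complex I) and 0.05 (complex II). Within complex IV the lowest value was that of Cox4i2 (-1.03, adjusted p = 0.09), and within complex I that of Ndufb9 (-0.33, adjusted p = 0.37). Ndufb9 was not the next lowest of all nuclear members. The highest of complex V was Atp5mc1 (0.35, adjusted p = 0.12) and the highest of complex I Ndufb2 (0.23, adjusted p = 0.25). The most negative mitochondrially encoded value was that of mt-Co1 (-0.46, adjusted p = 0.34). Without the 4 libraries rich in the unannotated feature, 4 members were called higher and 3 lower, mt-Co1 among the latter (log2 fold change -0.71, adjusted p = 0.00064). This set aside Scramble A1 and A3, the lowest Scramble libraries for mt-Co1 (2301 and 3328 CPM). Scramble A2, at 5767 CPM, and the Scramble siRNA B libraries, at 4575 to 5525 CPM, were kept. The Fmr1 libraries held 2811 to 3888 CPM. Leaving out 1 library moved the count higher to 1 without Scramble A1 and the count lower to 1 without Fmr1 B2.

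Pooled Zfp598 KD gave 1 member called higher and 3 lower by edgeR (1.03% and 3.09% of those tested), beside 0.916% and 1.04% of all genes. Ndufs1, the large iron-sulfur subunit of the NADH-oxidising arm of complex I, rose (log2 fold change 0.43, SE 0.08, adjusted p = 0.011). Its 6 KD libraries held 128, 150.0 and 159.6 CPM with siRNA A and 156, 162 and 165 CPM with siRNA B. Its Scramble libraries held 128, 102 and 115 CPM with siRNA A and 111, 111 and 117 CPM with siRNA B. Every KD library was above every Scramble library. The margin was small between the lowest KD library, Zfp598 A1 at 128.19 CPM, and the highest Scramble library, Scramble A1 at 128 CPM. Atp5f1c, the gamma subunit of the rotating stalk of ATP synthase, fell (log2 fold change -0.63, SE 0.13, adjusted p = 0.016), as did Atp5mc2 (log2 fold change -0.66, SE 0.16, adjusted p = 0.032). The call of Atp5mc2 was lost without Scramble A2, Scramble B1, Scramble B2, Scramble B3, Zfp598 A2, Zfp598 B1 or Zfp598 B3 (adjusted p = 0.057 to 0.082), and with the library number as a block. Ndufa6, an accessory subunit of complex I named here after its value was seen, also fell (-0.38, adjusted p = 0.043). The median log2 fold change was 0.02 over the mitochondrially encoded and -0.04 over the nuclear members, beside 0.01 over all genes. Among the mitochondrially encoded members the ends of the range were mt-Co1 (-0.50, adjusted p = 0.35) and mt-Nd2 (0.89, adjusted p = 0.069), and among nuclear complex IV members Cox5b-ps (-0.69, adjusted p = 0.17) and Ndufa4l2 (1.05, adjusted p = 0.18). Cox5b-ps, whose symbol is that of a pseudogene of Cox5b, held 11 to 68 counts a library. Of the windows of 100 letters along its transcript, 29.1% occur elsewhere in GRCm39. Leaving out 1 library moved the count higher to 2 without Fmr1 B3, to 3 without Zfp598 A1, and the count lower to 1 without Scramble A2, Scramble B2, Scramble B3, Zfp598 A2, Zfp598 B1 or Zfp598 B3. Setting aside the 4 libraries rich in the unannotated feature gave 2 higher and 2 lower. With counts summed per siRNA, 2 sums a condition, no member was called in either direction.

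**Figure D3:**
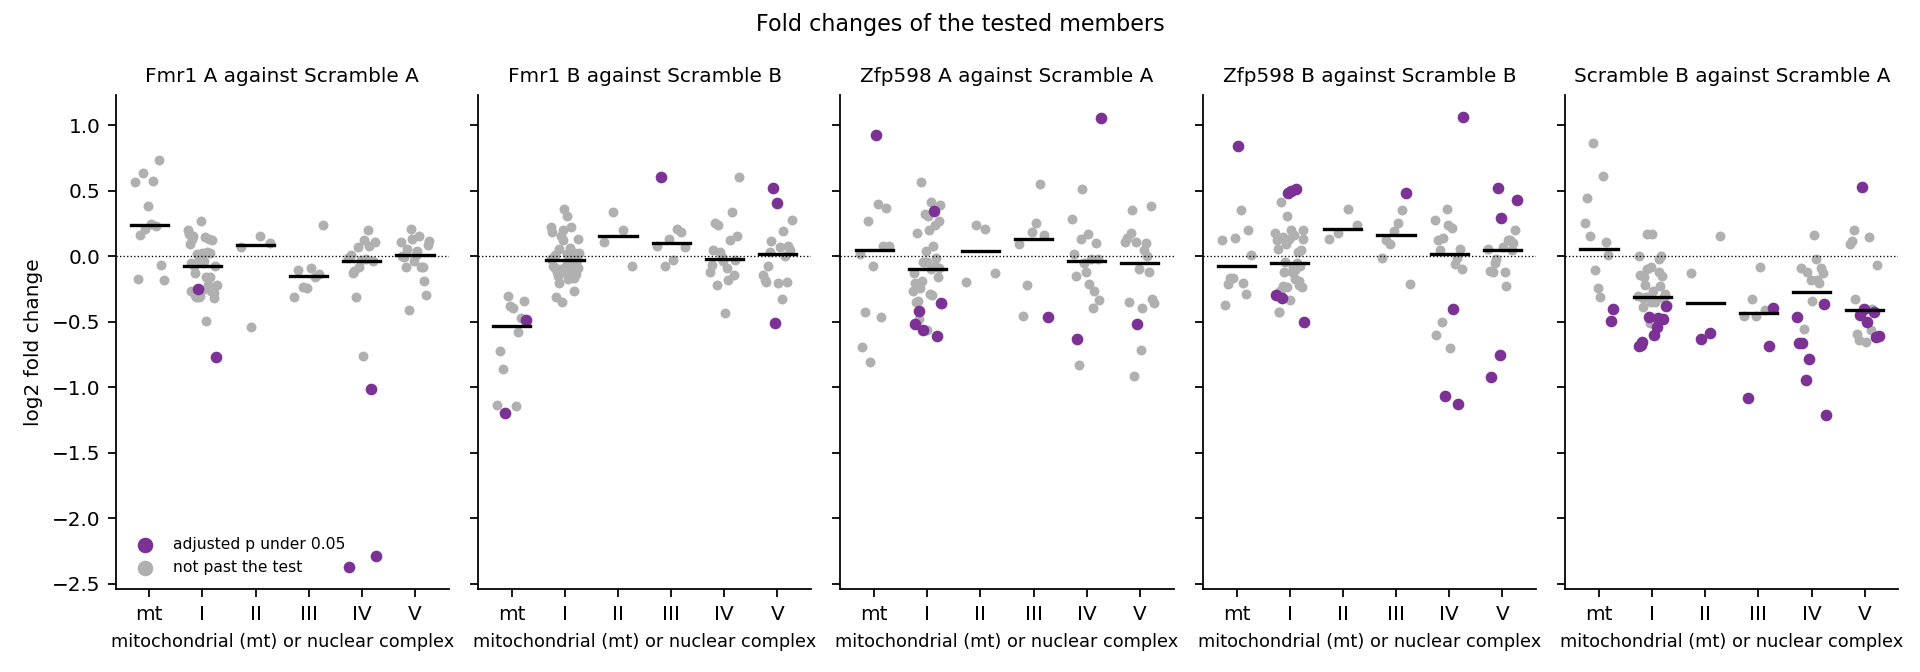
Log2 fold change of each tested member for the 5 comparisons of single siRNAs, with a column of points for the mitochondrially encoded (mt) members and 1 for the nuclear members of each complex. Purple points have an adjusted p under 0.05, grey points do not, and black bars are medians. All 12 mitochondrially encoded members lie below 0 in Fmr1 siRNA B against Scramble siRNA B, between -1.20 (mt-Co3, in the nuclear copy) and -0.31. The nuclear members of that comparison centre on 0.00.

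Taken by single siRNA, members were called in every comparison. In each comparison below a KD siRNA is set against the Scramble siRNA of the same letter, so Fmr1 and Zfp598 comparisons of a letter share their 3 Scramble libraries. With Fmr1 siRNA A, 5 members (5.15%) were lower and 0 higher, both shares under those of all genes, 13.6% lower and 10.0% higher. 14 members had an unadjusted p under 0.05, and DESeq2 also called 5 lower and 0 higher. Of the 5, 3 were in complex IV, and those 3 fell by more than 2-fold.

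Cox4i2 is the alternative isoform of a core-associated complex IV subunit, best known from lung and from cells at low oxygen. Its level was 18.6, 15.8 and 14.5 CPM with Scramble siRNA A and 3.18, 2.92 and 3.33 CPM with Fmr1 siRNA A (log2 fold change -2.37, SE 0.24, adjusted p = 4.2e-07). With the B siRNAs it was 10.9, 13.6 and 6.33 CPM for Scramble and 8.30, 11.5 and 9.61 CPM for Fmr1, and these overlapped. Ndufa4l2, a paralog of the complex IV subunit gene Ndufa4 that is also known to be induced at low oxygen, was at 30.0, 14.0 and 13.1 CPM with Scramble siRNA A and at 2.37, 4.48 and 4.74 CPM with Fmr1 siRNA A (log2 fold change -2.29, SE 0.35, adjusted p = 7.1e-05). For the B siRNAs its values were 8.95, 10.4 and 5.05 CPM with Scramble and 10.4, 14.1 and 12.5 CPM with Fmr1. The main isoforms Cox4i1 (-0.01, adjusted p = 0.97) and Ndufa4 (0.11, adjusted p = 0.57) were not called with Fmr1 siRNA A.

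Cox7c was at 131, 117 and 144 CPM with Scramble siRNA A and at 64.9, 63.9 and 65.2 CPM with Fmr1 siRNA A, the latter at 64.7 ± 0.694 CPM (mean ± SD, n = 3) (log2 fold change -1.01, SE 0.10, adjusted p = 5.9e-07). With siRNA B it was at 121, 113 and 132 CPM for Scramble and 103, 114 and 114 CPM for Fmr1 (log2 fold change -0.14, adjusted p = 0.34). Ndufv2, an iron-sulfur subunit of the NADH-oxidising arm of complex I, was at 77.6, 81.9 and 70.6 CPM with Scramble siRNA A and 45.4, 44.3 and 45.6 CPM with Fmr1 siRNA A (log2 fold change -0.77, SE 0.10, adjusted p = 8.4e-06). Every Fmr1 siRNA A library was below every Scramble siRNA A library for these 4 genes. The B values of Ndufv2 were 58.7, 59.0 and 59.5 CPM for Scramble and 62.3, 60.9 and 71.0 CPM for Fmr1, so the Fmr1 libraries were at or above the Scramble libraries there. The last call, Ndufab1, the mitochondrial acyl carrier protein, sat at the threshold (-0.25, adjusted p = 0.04997) and is named after its value was seen. Of the windows of 100 letters along the Ndufab1 transcript, 22.6% occur elsewhere in GRCm39. Calls of Cox4i2, Ndufa4l2, Cox7c and Ndufv2 held in all 27 alternative settings. Between these groups the fibroblast list also differed, at 14.7 to 19.0 CPM with Fmr1 siRNA A and 9.98 to 11.1 CPM with Scramble siRNA A. So did the N2A markers, at 2138 to 2437 and 2498 to 3192 CPM. The part of either in the result was not tested.

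With Fmr1 siRNA A, 9 of the 12 mitochondrially encoded members lay above 0 (median log2 fold change 0.24) and none was called, with 1 at an unadjusted p under 0.05 in edgeR and 0 called higher by DESeq2. The nuclear median was -0.05, and 52 of 85 lay below 0. The mitochondrial median moved to 0.68 without Scramble A2 and to 0.04 without Scramble A1. The count lower moved to 8 without Zfp598 A3, to 9 without Fmr1 A3, to 10 without Zfp598 A1 and to 11 without Scramble A2. Without the 4 libraries rich in the unannotated feature, Scramble A2 is the lone control library of this comparison.

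With Fmr1 siRNA B the mitochondrially encoded members stood below their control. All 12 lay below 0, with a median log2 fold change of -0.53 and a range of -1.20 (mt-Co3) to -0.31 (mt-Cytb), while the nuclear median was 0.00 with 42 above and 43 below. Few passed the test: 3 members were higher and 3 lower (3.09% each), beside 11.3% and 11.3% of all genes, and 2 of the lower were mitochondrially encoded. Of these 12 genes 11 are read from 1 strand of the mitochondrial DNA as long precursor RNAs and mt-Nd6 from the other, so their common sign is not 12 separate observations. Among them mt-Co2, mt-Co3, mt-Atp6, mt-Nd3 and mt-Nd4l lie wholly or almost wholly in the nuclear copy, at median counts of 16 to 63.5. mt-Co3 sets the low end of the range. Such genes enter this and the other mitochondrial medians with the same weight as the well-counted ones. Between libraries of a siRNA, the median level of the mitochondrially encoded members had a pooled SD of 0.42 on the log2 scale. Without Fmr1 B1, the library with stem cell markers, the median was -0.76, and over all libraries left out in turn it stayed between -0.76 and -0.45. The mitochondrial ribosomal RNA mt-Rnr2, which is not a member and was measured in rRNA-depleted libraries, was at 934, 763 and 824 CPM with Fmr1 siRNA B and 651, 885 and 913 CPM with Scramble siRNA B, and these overlapped (log2 fold change 0.04, SE 0.25, adjusted p = 0.93). The fibroblast list summed to 12.1 to 14.9 CPM with Fmr1 siRNA B and 6.46 to 7.31 CPM with Scramble siRNA B. The N2A markers summed to 2027 to 2453 and 1857 to 1986 CPM in these groups. The part of either in the result was not tested.

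mt-Co3, a core subunit of complex IV that lies wholly in the nuclear copy, was at 3.95, 6.35 and 9.21 CPM with Scramble siRNA B and 3.17, 2.31 and 3.02 CPM with Fmr1 siRNA B (log2 fold change -1.20, SE 0.37, adjusted p = 0.025), on 33 to 144 counts. mt-Nd6, the complex I subunit read from the other strand, was at 580.3, 566 and 524 CPM with Scramble siRNA B and 488, 306 and 396 CPM with Fmr1 siRNA B (log2 fold change -0.49, SE 0.14, adjusted p = 0.013). All Fmr1 siRNA B libraries were below all Scramble siRNA B libraries for both genes. The abundant mt-Co1 was at 4575, 5525 and 5397 CPM with Scramble siRNA B and 3713, 2871 and 2811 CPM with Fmr1 siRNA B (-0.72, adjusted p = 0.13), and mt-Nd5 differed by -0.34 (adjusted p = 0.13). The call of mt-Co3 was lost without Fmr1 B1, Fmr1 B2, Fmr1 B3, Scramble B2 or Scramble B3 (adjusted p = 0.051 to 0.16), and with all 6 Scramble libraries as control, and that of mt-Nd6 without Fmr1 B2 or Scramble B1 (adjusted p = 0.051 to 0.095).

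On the nuclear side the subunit c genes split. Atp5mc1 was at 56.8, 60.0 and 63.9 CPM with Scramble siRNA B and 84.1, 79.5 and 95.6 CPM with Fmr1 siRNA B (log2 fold change 0.52, SE 0.14, adjusted p = 0.012). Atp5mc3 went from 157, 142 and 139 to 184, 189 and 208 CPM (log2 fold change 0.41, SE 0.09, adjusted p = 0.0026), and Atp5mc2 the other way, from 51.1, 65.0 and 70.0 to 43.9, 44.2 and 42.8 CPM (log2 fold change -0.51, SE 0.16, adjusted p = 0.023). None of the 3 pairs of groups overlapped. Uqcr11, a small accessory subunit of complex III, rose from 7.50, 9.78 and 10.9 to 14.2, 11.8 and 16.9 CPM (log2 fold change 0.61, SE 0.18, adjusted p = 0.019). The Scramble siRNA B levels themselves differed from Scramble siRNA A in the opposite direction for all 4 genes, as described below, and with all 6 Scramble libraries as control none of these 4 was called. The call of Atp5mc2 was also lost without Fmr1 B1, Fmr1 B2, Fmr1 B3, Scramble B2 or Scramble B3 (adjusted p = 0.059 to 0.11), that of Atp5mc1 without Fmr1 B3 or Scramble B1 (adjusted p = 0.055 to 0.065) and that of Uqcr11 without Fmr1 B3 or Scramble B1 (adjusted p = 0.11).

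The count lower moved to 0 without Fmr1 B2, to 1 without Fmr1 B1, Scramble B2 or Scramble B3, to 6 without Zfp598 A1, and the count higher to 1 without Fmr1 B3 or Scramble B1, to 5 without Zfp598 A1. Without the 4 libraries rich in the unannotated feature, none of which is in this comparison, the counts were 8 higher and 14 lower. These libraries enter this comparison through the spread that all groups share and through the scaling, which was computed anew without them.

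With Zfp598 siRNA A, 3 members (3.09%) were higher and 8 (8.25%) lower, beside 6.30% and 5.64% of all genes, with median log2 fold changes of 0.05 over the mitochondrially encoded and -0.08 over the nuclear members. The falls were spread over accessory subunits: Ndufs5 (-0.61, adjusted p = 0.017), Ndufb1 (-0.56, adjusted p = 0.038) and Ndufa12 (-0.52, adjusted p = 0.021) of complex I, Uqcrq (-0.47, adjusted p = 0.023) of complex III and Cox5b (-0.63, adjusted p = 0.021) of complex IV. Also lower were Ndufv2 (-0.36, adjusted p = 0.022) and Atp5mc2 (-0.52, adjusted p = 0.045), and, outside the rule for named genes, Ndufa6 (-0.42, adjusted p = 0.02). Of the windows of 100 letters along the transcript, 61.8% for Ndufs5, 21.8% for Cox5b and 15.6% for Ndufa12 occur elsewhere in GRCm39. The share was 0 for Ndufb1, Uqcrq and Ndufa6. The rises were Ndufs1 (0.34, adjusted p = 0.02), mt-Nd2 (0.93, adjusted p = 0.029) and Ndufa4l2 (1.05, adjusted p = 0.028). Ndufa6 was not followed through the settings as a single gene. With only the groups compared in the fit no member was called, so its call was lost there. Each of the other 10 calls was lost in some of the 27 settings. That of Ndufs5 was lost without Scramble A3 or Zfp598 A2 (adjusted p = 0.065 to 0.073). That of Ndufb1 was lost without Scramble A1, Scramble A2, Scramble A3, Zfp598 A1, Zfp598 A2 or Zfp598 A3 (adjusted p = 0.053 to 0.12), and that of Ndufa12 without Scramble A2 or Zfp598 A3 (adjusted p = 0.073 to 0.15). Uqcrq lost its call without Scramble A3 (adjusted p = 0.08). Cox5b lost its call without Scramble A2 or Zfp598 A2 (adjusted p = 0.098 to 0.11) and Ndufv2 without Scramble A2 or Zfp598 A3 (adjusted p = 0.082 to 0.1). With all 6 Scramble libraries as control, the calls of Ndufb1, Uqcrq, Cox5b and Ndufv2 were also lost. Of these genes, Uqcrq, Cox5b and Ndufv2 were called lower with Scramble siRNA B than with Scramble siRNA A. Ndufs1 lost its call without Scramble A2, Scramble A3, Zfp598 A2 or Zfp598 A3 (adjusted p = 0.061 to 0.12). mt-Nd2 lost its call without Scramble A1, Scramble A2, Scramble A3, Zfp598 A2 or Zfp598 A3 (adjusted p = 0.0501 to 0.26) and Ndufa4l2 without Scramble A2, Scramble A3, Zfp598 A2 or Zfp598 A3 (adjusted p = 0.063 to 0.15). The call of Atp5mc2 was the least firm, lost in 18 of 27 settings, among them the replicate block and the leaving out of any of 14 libraries (all but Scramble A1, Scramble B1, Scramble B3 and Zfp598 A1) (adjusted p = 0.052 to 0.22).

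Of the 6 libraries compared here, 4 are those rich in the unannotated feature (Scramble A1 and A3, Zfp598 A2 and A3), which leaves Scramble A2 and Zfp598 A1 as lone samples, assumed to vary like the other groups, once they are set aside. Then 0 members were called higher and 4 lower. Of the 10 calls above followed through the settings, that of Ndufa12 held (adjusted p = 0.0044) and the others were lost (adjusted p = 0.075 to 0.56). mt-Nd2 turned from 0.93 to -0.30 (adjusted p = 0.56) there. mt-Nd2, a proton-pumping complex I subunit, held 312, 466 and 481 CPM with Scramble siRNA A and 383, 1209 and 807 CPM with Zfp598 siRNA A, so that Zfp598 A1 lay among the Scramble values. With only the 6 libraries of the comparison in the model, edgeR called no member in either direction (32 had an unadjusted p under 0.05 with all 18 libraries in the model, where DESeq2 called 4 higher and 9 lower). Leaving out 1 library moved the count higher to 0 without Scramble A2, Scramble A3, Zfp598 A2 or Zfp598 A3, to 21 without Zfp598 A1, and the count lower to 2 without Scramble A2, to 3 without Zfp598 A2 or Zfp598 A3, to 4 without Scramble A3, to 18 without Zfp598 A1.

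With Zfp598 siRNA B, 9 members (9.28%) were higher and 8 (8.25%) lower, both under the 12.4% and 14.4% of all genes. Cox7c fell most, from 121, 113 and 132 CPM with Scramble siRNA B to 46.7, 62.6 and 58.4 CPM (log2 fold change -1.13, SE 0.10, adjusted p = 2.1e-07), whereas with siRNA A it stood at 129.6, 138 and 152 CPM under Zfp598 KD and 131, 117 and 144 CPM under Scramble KD. Atp5f1c was at 176, 193 and 192 CPM with Scramble siRNA B and 100.4, 97.8 and 98.2 CPM with Zfp598 siRNA B (log2 fold change -0.92, SE 0.15, adjusted p = 0.0001). For siRNA A the Atp5f1c values were 138, 201 and 148 and 169, 114 and 97.8 CPM (-0.35, adjusted p = 0.13), with Zfp598 A1 among the Scramble libraries and the others below them. Atp5mc2 fell from 51.1, 65.0 and 70.0 to 34.3, 40.3 and 35.8 CPM (log2 fold change -0.75, SE 0.16, adjusted p = 0.0014), and it was called lower with both Zfp598 siRNAs, as was Ndufa6, though the siRNA A call of Atp5mc2 was lost in 18 of 27 settings as given above. Cox7a2l, known for joining complexes III and IV into supercomplexes, fell from 143, 135 and 156 to 102, 101 and 125 CPM (log2 fold change -0.41, SE 0.09, adjusted p = 0.0032). Of the windows of 100 letters along its transcript, 27.3% occur elsewhere in GRCm39. Cox6a2, the heart and muscle isoform of a complex IV subunit, was called on low levels of 1.32, 2.19 and 2.68 against 0.894, 1.28 and 0.767 CPM (log2 fold change -1.07, SE 0.37, adjusted p = 0.036).

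Among the rises with Zfp598 siRNA B, Ndufs1 went from 111, 111 and 117 to 156, 162 and 165 CPM (log2 fold change 0.51, SE 0.09, adjusted p = 0.00034), with no overlap. Ndufb2, an accessory complex I subunit, went from 11.0, 10.6 and 11.0 to 15.3, 15.3 and 14.8 CPM (log2 fold change 0.48, SE 0.12, adjusted p = 0.0062). mt-Nd2 went from 333, 324 and 357 to 614, 483 and 722 CPM (log2 fold change 0.84, SE 0.27, adjusted p = 0.025), the only mitochondrially encoded member called, while the mitochondrial median was -0.08 and the nuclear median 0.05. The remaining rises were Ndufa4l2 (1.06, adjusted p = 0.02), Atp5mc1 (0.52, adjusted p = 0.011), Atp5po (0.43, adjusted p = 0.028) and Atp5mc3 (0.29, adjusted p = 0.024), together with Ndufb6 (0.50) and Uqcrh (0.48), which are outside the rule for named genes and were picked out after their values were seen. So were 3 falls in complex I, of Ndufv3 (-0.50), Ndufa6 (-0.32) and Ndufa10 (-0.30). Calls of Cox7c, Atp5f1c, Atp5mc2, Cox7a2l, Ndufs1 and Ndufb2 held in all 27 settings, whereas that of mt-Nd2 was lost without Scramble B1, Scramble B2, Scramble B3, Zfp598 B1 or Zfp598 B3 (adjusted p = 0.055 to 0.11). The call of Cox6a2 was lost without Scramble B2, Scramble B3, Zfp598 B1 or Zfp598 B3 (adjusted p = 0.087 to 0.16). That of Ndufa4l2 was lost without Scramble B3, Zfp598 B2 or Zfp598 B3 (adjusted p = 0.053 to 0.11) and that of Atp5mc1 without Zfp598 B2 (adjusted p = 0.063). Atp5po lost its call without Scramble B1, Scramble B2, Zfp598 B1 or Zfp598 B3 (adjusted p = 0.062 to 0.1) and Atp5mc3 without Scramble B2, Scramble B3, Zfp598 B2 or Zfp598 B3 (adjusted p = 0.052 to 0.091). With siRNA B, Ndufa4l2, Atp5mc1, Atp5po and Atp5mc3 also lost their calls with all 6 Scramble libraries as control. The fibroblast list summed to 11.7 to 15.3 CPM with Zfp598 siRNA B, above the 6.46 to 7.31 CPM of Scramble siRNA B. The N2A markers summed to 2138 to 2385 CPM, above 1857 to 1986 CPM. The part of either in the result was not tested. Leaving out 1 library moved the count higher to 3 without Zfp598 B3, to 4 without Scramble B2, Scramble B3 or Zfp598 B2, to 5 without Scramble B1, and the count lower to 4 without Scramble B2 or Zfp598 B3, to 5 without Zfp598 B1. The counts were 19 higher and 14 lower with the 4 libraries set aside, none of which is in this comparison.

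**Figure D4:**
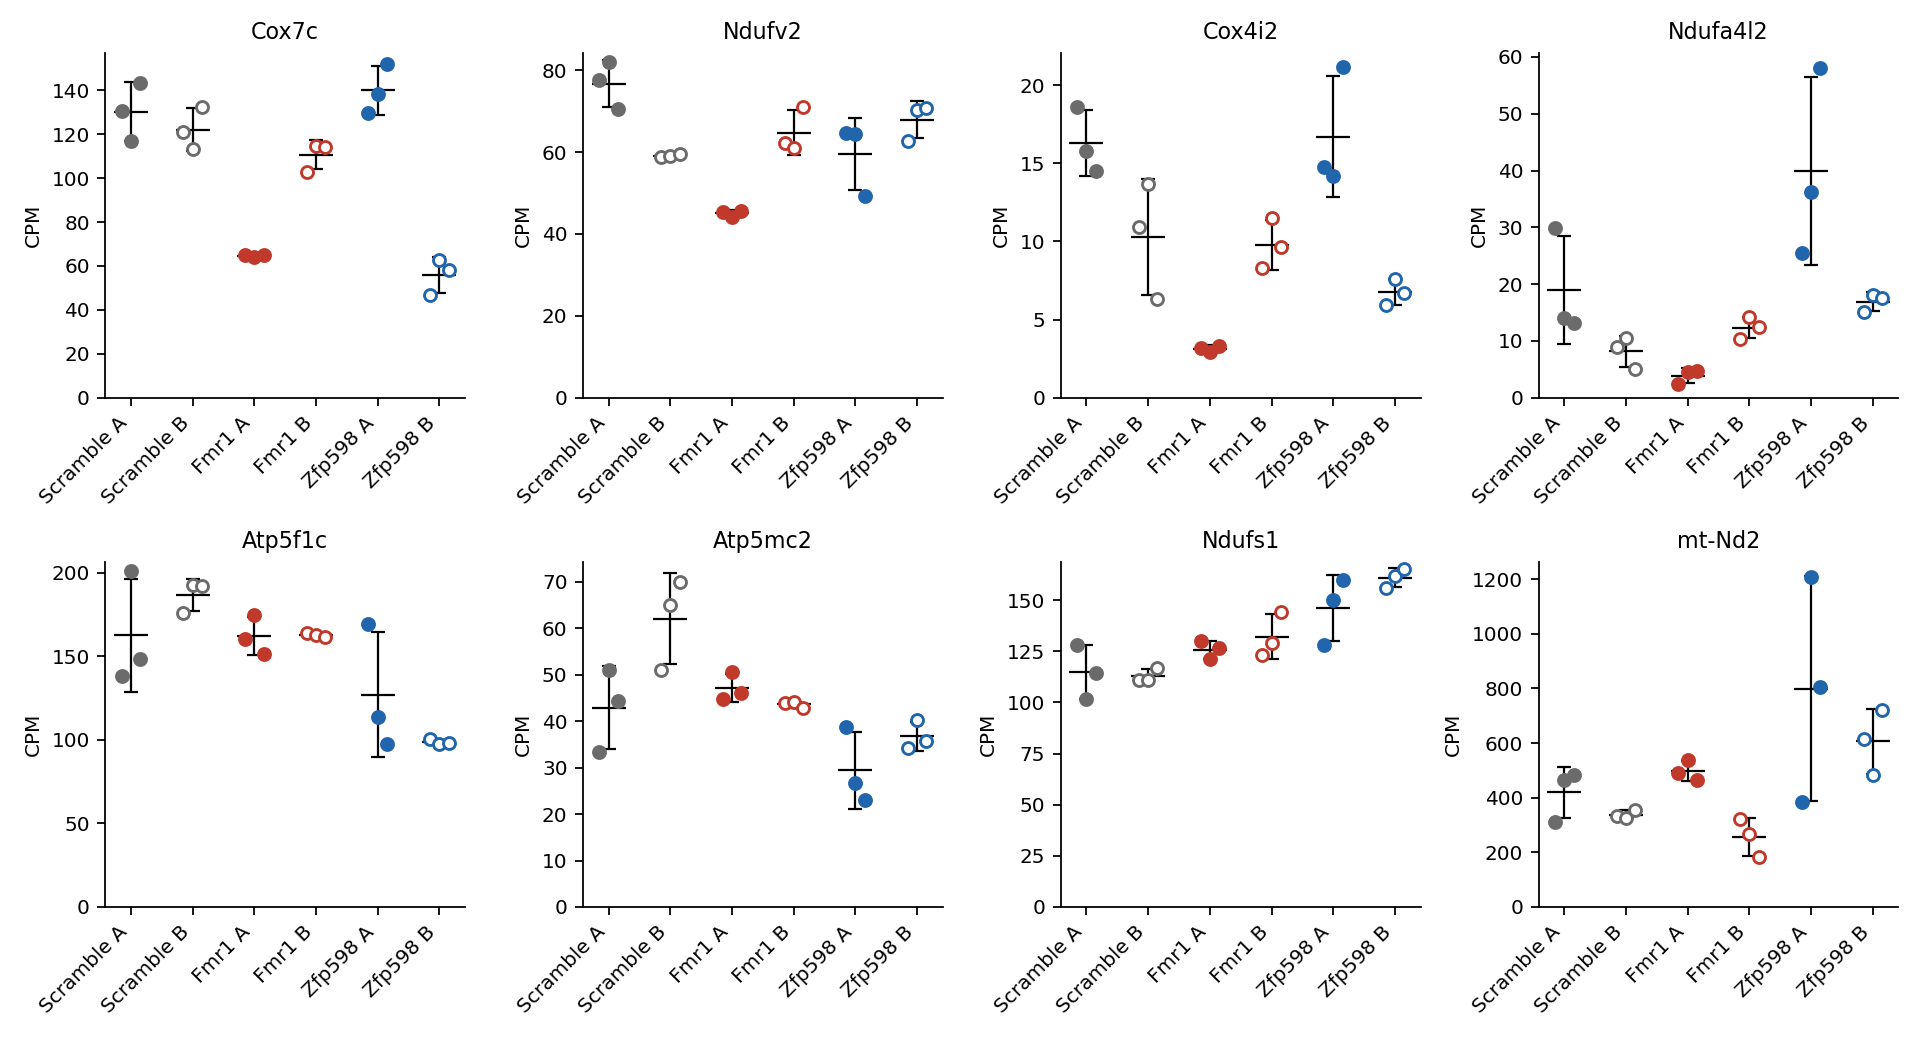
CPM of selected members in the 18 libraries, 1 panel a gene, with siRNA A filled and siRNA B open, and black bars at the mean ± SD of the 3 libraries of a siRNA. Cox7c lies at 63.9 to 65.2 CPM with Fmr1 siRNA A and 46.7 to 62.6 CPM with Zfp598 siRNA B, and at 103 to 152 CPM with the other 4 siRNAs.

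The 2 control siRNAs also differed from each other. Scramble siRNA B against Scramble siRNA A gave 1 member higher and 29 lower, beside 10.4% and 12.2% of all genes; the 29 are 29.9% of the members tested. Of these 27 were nuclear, 9 of the 37 tested in complex I, 2 of 4 in complex II, 3 of 8 in complex III, 7 of 18 in complex IV and 6 of 18 in complex V. 74 of 85 nuclear members lay below 0 and their median log2 fold change was -0.35, beside 0.06 over the mitochondrially encoded members and 0.00 over all genes. The largest falls were Ndufa4l2 (-1.21, adjusted p = 0.0098), Uqcr11 from 24.2, 17.5 and 18.1 to 7.50, 9.78 and 10.9 CPM (log2 fold change -1.08, SE 0.18, adjusted p = 0.00018) and Cox6a1, the common isoform beside the muscle form Cox6a2, from 95.1, 65.0 and 92.8 to 34.7, 44.1 and 52.4 CPM (log2 fold change -0.95, SE 0.30, adjusted p = 0.028). Cox6b1, a subunit on the outer face of complex IV, also fell (log2 fold change -0.79, SE 0.19, adjusted p = 0.0053). Of the mitochondrially encoded members, mt-Nd5 (-0.50, adjusted p = 0.027) and mt-Nd6 (-0.41, adjusted p = 0.038) were lower. The single rise was Atp5mc2, from 33.3, 51.1 and 44.3 to 51.1, 65.0 and 70.0 CPM (log2 fold change 0.53, SE 0.16, adjusted p = 0.02).

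Scramble A1 and A3 are 2 of the 4 libraries rich in the unannotated feature. Without all 4, Scramble A2 is the lone library of Scramble siRNA A, and the nuclear median was -0.18. Atp5mc2 (adjusted p = 0.19), Cox6a1 (adjusted p = 0.079), mt-Nd5 (adjusted p = 0.4) and mt-Nd6 (adjusted p = 0.25) then lost their calls. The call of Atp5mc2 was also lost without Scramble A1, Scramble B2 or Scramble B3 (adjusted p = 0.066 to 0.12). That of Cox6a1 was lost without Scramble A1, Scramble A3, Scramble B1 or Scramble B2 (adjusted p = 0.073 to 0.12) and that of Ndufa4l2 without Scramble A1 or Scramble B3 (adjusted p = 0.063 to 0.11). mt-Nd5 lost its call without Scramble A1, Scramble A3, Scramble B1 or Scramble B3 (adjusted p = 0.061 to 0.11) and mt-Nd6 without Scramble A1, Scramble A3, Scramble B1, Scramble B2 or Scramble B3 (adjusted p = 0.051 to 0.2). The N2A markers summed to 1857 to 1986 CPM with Scramble siRNA B and 2498 to 3192 CPM with Scramble siRNA A. The fibroblast list summed to 6.46 to 7.31 and 9.98 to 11.1 CPM in these groups. The part of either in the result was not tested. Leaving out 1 library moved the count lower to 11 without Scramble B1, to 14 without Scramble A1, to 16 without Scramble A3 or Scramble B2, and the count higher to 0 without Scramble A1, Scramble B2 or Scramble B3, to 2 without Scramble A2 or Scramble B1. Calls of Cox5b, Cox6b1, Uqcr11, Atp5po and Ndufv2 held in all 26 settings. The choice of control bears on each KD comparison above. With all 6 Scramble libraries as control, Fmr1 siRNA A had 10 members higher, Fmr1 siRNA B 0 higher and 6 lower, Zfp598 siRNA A 21 higher, and Zfp598 siRNA B 4 higher and 21 lower.

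Whether the 2 siRNAs against a target changed a member unequally was tested as a difference of effects, (KD minus Scramble with siRNA B) minus (KD minus Scramble with siRNA A). For Fmr1 this difference was called above 0 for 7 members (7.22%) and below 0 for 2 (2.06%), beside 12.2% and 9.65% of all genes. Those of Ndufa4l2 (2.89, adjusted p = 0.00018), Cox4i2 (2.30, adjusted p = 2.4e-05), Ndufv2 (0.90, adjusted p = 7.7e-05) and Cox7c (0.87, adjusted p = 0.00018) held in all 25 settings. These are the 4 genes that fell steeply with siRNA A. Sdhb, the iron-sulfur subunit of complex II (0.88, adjusted p = 0.046), Uqcr11 (0.71, adjusted p = 0.047) and Atp5mc3 (0.45, adjusted p = 0.016) were also above 0. Below 0 were mt-Co3 (-1.83, adjusted p = 0.016) and Atp5mc2 (-0.64, adjusted p = 0.045). These 5 calls were less firm. That of Sdhb was lost in 15 of 25 settings, among them without any of 14 libraries (all but Fmr1 A3, Scramble A2, Zfp598 A1 and Zfp598 A3) (adjusted p = 0.052 to 0.13). That of Atp5mc2 was lost in 14, among them without any of 13 libraries (all but Scramble A2, Scramble B1, Zfp598 A1, Zfp598 A2 and Zfp598 A3) (adjusted p = 0.052 to 0.13). Uqcr11 lost its call in 10 settings, among them without Fmr1 A1, Fmr1 A2, Fmr1 B1, Fmr1 B3, Scramble A1, Scramble B1, Scramble B2, Zfp598 A2 or Zfp598 B3 (adjusted p = 0.054 to 0.14). Atp5mc3 lost its call without Fmr1 B3 or Scramble A3 (adjusted p = 0.052 to 0.053) and mt-Co3 without Fmr1 A1 or Scramble B3 (adjusted p = 0.055 to 0.062). With the 4 libraries rich in the unannotated feature set aside there were 5 above 0 and 6 below 0. The calls of Sdhb, Atp5mc2, Uqcr11 and Atp5mc3 were then lost (adjusted p = 0.098 to 0.17) and that of mt-Co3 held. On the log2 scale the median level of the mitochondrially encoded members had a pooled SD of 0.42 between libraries of a siRNA. All 12 of these members lay below 0 in the difference, with a median of -0.79 against 0.04 over the nuclear members. That median was -1.21 without Scramble A2 and -0.49 without Scramble A1, and the count below 0 moved to 0 without Scramble B3, to 1 without Fmr1 A1, Fmr1 A2, Fmr1 A3, Fmr1 B2, Scramble B2, Zfp598 B1 or Zfp598 B2, to 4 without Zfp598 A1, to 6 without Scramble A2, and the count above 0 to 4 without Fmr1 B3.

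For Zfp598 the difference was called above 0 for 6 members (6.19%) and below 0 for 3 (3.09%), beside 10.1% and 11.9% of all genes, and for 0 of the 12 mitochondrially encoded members by edgeR, with 0 at an unadjusted p under 0.05. Below 0 were Cox6a2 (-1.58, adjusted p = 0.026), Cox7c (-1.23, adjusted p = 5.2e-06) and Cox7a2l (-0.38, adjusted p = 0.047). Those above 0 were led by Ndufa5 (0.90, adjusted p = 0.028), Atp5po (0.79, adjusted p = 0.0074), the peripheral stalk subunit of ATP synthase, and Ndufa12 (0.57, adjusted p = 0.044). Ndufv2 (0.56, adjusted p = 0.0064) and Sdha (0.33, adjusted p = 0.023), the flavoprotein of complex II, and Atp5mc3 (0.39, adjusted p = 0.037) followed. Cox7c, Atp5po and Ndufv2 held in all 25 settings. Cox7a2l lost its call in 15 of these, among them without any of 13 libraries (all but Fmr1 B1, Fmr1 B3, Scramble B2, Zfp598 A1 and Zfp598 B3) (adjusted p = 0.056 to 0.12). Ndufa12 lost its call without any of 11 libraries (all but Fmr1 A1, Fmr1 A3, Scramble A1, Scramble A3, Scramble B2, Scramble B3 and Zfp598 A2) (adjusted p = 0.051 to 0.14). Cox6a2 lost its call without Scramble A1, Scramble B2, Scramble B3, Zfp598 A2, Zfp598 A3, Zfp598 B1 or Zfp598 B3 (adjusted p = 0.051 to 0.078) and Atp5mc3 without Scramble A1, Scramble A3, Scramble B2, Scramble B3, Zfp598 A2, Zfp598 B1, Zfp598 B2 or Zfp598 B3 (adjusted p = 0.051 to 0.094). Sdha lost its call without Scramble B1, Scramble B2, Zfp598 A2 or Zfp598 B2 (adjusted p = 0.056 to 0.058) and Ndufa5 without Scramble A2, Scramble B1, Zfp598 A3 or Zfp598 B1 (adjusted p = 0.0502 to 0.077). With the 4 libraries rich in the unannotated feature set aside there were 9 above 0 and 2 below 0, and Cox7a2l, Cox6a2, Atp5mc3 and Sdha lost their calls (adjusted p = 0.11 to 0.54). Leaving out 1 library moved the count above 0 to 3 without Scramble B1 or Zfp598 B2, to 14 without Zfp598 A1, and the count below 0 to 1 without Zfp598 A2 or Zfp598 B1, to 7 without Zfp598 A1.

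Several complex IV subunits and subunit c of ATP synthase come in isoforms, whose mean levels per kilobase over the 18 libraries can be compared. The widely expressed form was the higher in each pair, with Cox4i1 at 459.6 CPM per kilobase against 13.8 for Cox4i2, Cox6a1 at 114 against 3.22 for Cox6a2, and Ndufa4 at 109.6 against 17.3 for Ndufa4l2. Cox7a2 stood at 125 CPM per kilobase, against 8.99 for the muscle form Cox7a1. Cox6b2, the testis form, had a median of 6 counts a library against 592 for Cox6b1, Cox8b a median of 2 counts against 1553 for Cox8a, and Cox8c had 0 counts in all 18 libraries. For subunit c the mean levels were 182 CPM per kilobase for Atp5mc3, 136 for Atp5mc1 and 59.7 for Atp5mc2. The order of the last pair is uncertain, since 84.4% and 88.4% of the 50-base windows of their transcripts occur elsewhere in the genome, and in CPM Atp5mc2 was above Atp5mc1 in Scramble B2 and Scramble B3. Atp5if1, the inhibitor of ATP hydrolysis by complex V, ranged from 3.20 to 16.7 CPM and was called by edgeR in none of the 9 comparisons, with its largest fold change in Zfp598 siRNA A (-0.91, adjusted p = 0.12).

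Genes that build or feed the complexes were counted the same way, from lists chosen, like the members, with earlier results of these data known. In pooled Fmr1 KD the 43 assembly factors tested gave 1 higher and 0 lower, the 35 genes of mitochondrial gene expression 1 higher and 0 lower, the 77 mitochondrial ribosomal protein genes 0 higher and 0 lower and the 9 carriers and regulators 0 higher and 0 lower, beside 2.73% and 3.80% of all genes, with 3, 9, 13 and 1 of them at an unadjusted p under 0.05. The 2 called were Foxred1 (0.50, adjusted p = 0.043), an assembly factor of complex I, and Elac2 (0.34, adjusted p = 0.039), which processes mitochondrial tRNA precursors. Foxred1 lost its call without any of 10 libraries (all but Fmr1 B3, Scramble A2, Scramble A3, Zfp598 A1, Zfp598 A2, Zfp598 A3, Zfp598 B1 and Zfp598 B2) (adjusted p = 0.052 to 0.1). Elac2 lost its call without Fmr1 A1, Fmr1 A2, Fmr1 A3, Fmr1 B1, Fmr1 B2, Scramble A1, Scramble A3, Scramble B1 or Scramble B2 (adjusted p = 0.0503 to 0.087), and both lost it with the library number as a block. Setting aside the 4 libraries rich in the unannotated feature, the counts higher and lower in the same order were 5 and 0, 4 and 0, 4 and 3, and 1 and 2. In pooled Zfp598 KD edgeR called none of these genes, beside 0.916% and 1.04% of all genes, with 5, 7, 9 and 0 in the same order at an unadjusted p under 0.05. With the 4 libraries set aside the counts were 2 and 0, 0 and 1, 0 and 1, and 0 and 0. DESeq2 called 1 assembly factor higher, 2 gene expression genes lower and 1 ribosomal protein gene lower with all libraries.

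With Fmr1 siRNA A, 57 of the 77 mitochondrial ribosomal protein genes lay above 0, and 13 were called higher and 0 lower (16.9% and 0%), beside 10.0% and 13.6% of all genes. The highest called was Mrps12 (0.72, adjusted p = 0.0019). Of the 35 genes of mitochondrial gene expression 30 lay above 0, and 10 were called higher and 1 lower (28.6% and 2.86%). At their ends were Mrrf (-0.39, adjusted p = 0.02), the ribosome recycling factor, and Fastkd3 (0.78, adjusted p = 4.1e-05), an RNA-binding protein of mitochondria. The calls of Mrps12 and Fastkd3 held in all 27 settings, and that of Mrrf was lost without Fmr1 A1, Fmr1 A3 or Scramble A3 (adjusted p = 0.073 to 0.13). The list medians were 0.16 and 0.29 on the log2 scale, beside 0.01 over all genes. The counts higher and lower were 22 and 1 for the ribosomal protein genes and 13 and 1 for the gene expression genes without the 4 libraries rich in the unannotated feature. Over single libraries left out they ran over 6 to 18 and 0 to 1, and 8 to 13 and 0 to 2. Assembly factors gave 3 higher and 0 lower (4 and 0 without the 4 libraries), led by Uqcc3 (0.80, adjusted p = 0.041) of complex III, whose call was lost without Fmr1 A1, Fmr1 A3, Scramble A1, Scramble A2, Scramble A3 or Zfp598 B2 (adjusted p = 0.051 to 0.18).

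Fmr1 siRNA B gave 3 higher and 7 lower among the ribosomal protein genes (3.9% and 9.09%), beside 11.3% and 11.3% of all genes, from Mrpl42 (-0.57, adjusted p = 0.0015) to Mrpl18 (0.57, adjusted p = 0.036). It gave 1 higher and 1 lower among the gene expression genes, Elac2 (0.29, adjusted p = 0.043) and Mterf1a (-0.57, adjusted p = 0.034). There were 5 higher and 2 lower among the assembly factors (11.6% and 4.65%), from Atpaf2 (-0.48, adjusted p = 0.033) to Foxred1 (0.65, adjusted p = 0.001). The call of Foxred1 held in all 27 settings and that of Mrpl42 was lost with all 6 Scramble libraries as control. Mrpl18 lost its call without Fmr1 B2, Fmr1 B3, Scramble B1 or Scramble B2 (adjusted p = 0.059 to 0.25) and Elac2 without Fmr1 A1, Fmr1 A2, Fmr1 B1, Fmr1 B2, Scramble B1, Scramble B2, Zfp598 B1, Zfp598 B2 or Zfp598 B3 (adjusted p = 0.051 to 0.21). Mterf1a lost its call without Fmr1 B1, Fmr1 B2, Fmr1 B3, Scramble B1 or Scramble B3 (adjusted p = 0.06 to 0.18) and Atpaf2 without Fmr1 B1, Fmr1 B2, Fmr1 B3, Scramble B2 or Scramble B3 (adjusted p = 0.059 to 0.16). The counts without the 4 libraries rich in the unannotated feature were 5 and 13 for the ribosomal protein genes, 4 and 3 for the gene expression genes and 5 and 5 for the assembly factors. Without Fmr1 B1 they were 3 and 4, 0 and 0, and 4 and 2.

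The difference of effects between the 2 Fmr1 siRNAs was above 0 for 1 and below 0 for 11 ribosomal protein genes (1.3% and 14.3%), beside 12.2% and 9.65% of all genes, Mrpl35 (-0.69, adjusted p = 0.0084) being the lowest called. It was above 0 for 0 and below 0 for 8 gene expression genes (0% and 22.9%), Fastkd3 (-0.69, adjusted p = 0.0039) being the lowest. Both calls held in all 25 settings. The counts above and below 0 were 0 and 17 and, for gene expression, 0 and 9 without the 4 libraries rich in the unannotated feature. They ran over 0 to 1 and 8 to 16, and 0 to 1 and 4 to 9, with single libraries left out.

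With Zfp598 siRNA A the background was 6.30% of all genes higher and 5.64% lower. The assembly factors gave 0 higher and 2 lower (0% and 4.65%), Cox10 (-0.52, adjusted p = 0.0061) being the lowest. The ribosomal protein genes gave 3 higher and 2 lower (3.9% and 2.6%), from Mrpl16 (-0.46, adjusted p = 0.028) to Mrpl34 (0.75, adjusted p = 0.039). The gene expression genes gave 4 higher and 0 lower (11.4% and 0%), led by Polg2 (0.72, adjusted p = 0.0091), the accessory subunit of the mitochondrial DNA polymerase. Cycs, which encodes the somatic cytochrome c that carries electrons between complexes III and IV, fell (-1.16, adjusted p = 0.00039). Gabpa, a transcription factor that binds promoters of respiratory genes, was higher (0.53, adjusted p = 0.0003). The 4 libraries rich in the unannotated feature are 4 of the 6 compared here, and without them the counts were 1 and 0 for the assembly factors, 0 and 0 for the ribosomal protein genes and 1 and 0 for the gene expression genes. The call of Cycs held there (log2 fold change -1.33, adjusted p = 3.7e-05), and those of Cox10, Mrpl16, Mrpl34, Polg2 and Gabpa were lost (adjusted p = 0.053 to 0.29). All 6 calls were lost with only the 6 libraries compared in the model. Mrpl16 and Mrpl34 also lost theirs without Scramble A2, Scramble A3, Zfp598 A2 or Zfp598 A3 (adjusted p = 0.052 to 0.22), and Polg2 without Scramble A2 or Zfp598 A2 (adjusted p = 0.056 to 0.069). Over single libraries left out the counts of the ribosomal protein genes ran over 0 to 15 and 1 to 5.

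With Zfp598 siRNA B, where 12.4% and 14.4% of all genes were called, the assembly factors gave 7 higher and 4 lower (16.3% and 9.3%), from Lyrm7 (-1.10, adjusted p = 0.015) to Fmc1 (0.90, adjusted p = 0.02). The ribosomal protein genes gave 3 higher and 13 lower (3.9% and 16.9%), from Mrpl42 (-0.55, adjusted p = 0.0021) to Mrpl49 (0.68, adjusted p = 0.0015). The gene expression genes gave 4 higher and 3 lower (11.4% and 8.57%), with Mrrf (-0.61, adjusted p = 0.0007) and Lrpprc (0.49, adjusted p = 0.00066), a stabiliser of mitochondrial mRNAs, at the ends. Calls of Mrpl49, Mrrf and Lrpprc held in all 27 settings. Lyrm7 lost its call without Scramble B3, Zfp598 B2 or Zfp598 B3 (adjusted p = 0.053 to 0.083), Fmc1 without Scramble B1 or Zfp598 B3 (adjusted p = 0.08 to 0.1), and Mrpl42 with all 6 Scramble libraries as control. The counts were 7 and 6, 4 and 20, and 7 and 6 in the same order without the 4 libraries rich in the unannotated feature. They ran over 3 to 7 and 0 to 4, 3 and 4 to 17, and 2 to 5 and 2 to 6 with single libraries left out. Gabpa was lower (-0.43, adjusted p = 0.00058), a call lost with all 6 Scramble libraries as control. The difference of effects between the 2 Zfp598 siRNAs was called for Gabpa (-0.96, adjusted p = 6.9e-06) and for Cycs (1.43, adjusted p = 0.00041), and both held in all 25 settings.

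Between the 2 Scramble siRNAs, Gabpa was also higher with siRNA B (0.53, adjusted p = 8.4e-05). Assembly factors gave 0 higher and 8 lower (0% and 18.6%), beside 10.4% and 12.2% of all genes, with Coa3 (-0.87, adjusted p = 0.0028) lowest, and both calls held in all 26 settings. The gene expression genes gave 3 higher and 1 lower and the ribosomal protein genes 3 higher and 3 lower. Setting aside the same 4 libraries, the counts were 2 and 3, 5 and 1, and 2 and 2 in that order. The medians of these lists were -0.11, 0.10 and -0.03, beside -0.35 over the nuclear members.

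The 4 libraries rich in the unannotated feature differed from the other 14 in the members as well. mt-Co1 was at 1087 to 3328 CPM against 2811 to 5767 CPM in the other 14, and mt-Cytb at 275 to 720.4 CPM against 509 to 1244 CPM. By contrast mt-Nd5 was at 3175 to 4826 CPM against 1339.8 to 3115 CPM and the nuclear sum at 9304 to 10517 CPM against 7062 to 8944 CPM, neither of them overlapping. Among nuclear members Sdhb was at 438 to 647 CPM against 238 to 379 CPM and Cox4i1 at 422 to 589 CPM against 233 to 452 CPM, whereas Atp5mc2 was at 22.9 to 44.3 CPM against 34.3 to 70.0 CPM. All 4 received siRNA A, 2 of them Scramble and 2 Zfp598, so that Fmr1 siRNA A held none. With the share of the feature as a covariate, Fmr1 siRNA A had 4 members higher and 10 lower, Zfp598 siRNA A 2 higher and 17 lower, and Scramble siRNA B against A 1 higher and 36 lower.

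**Figure D5:**
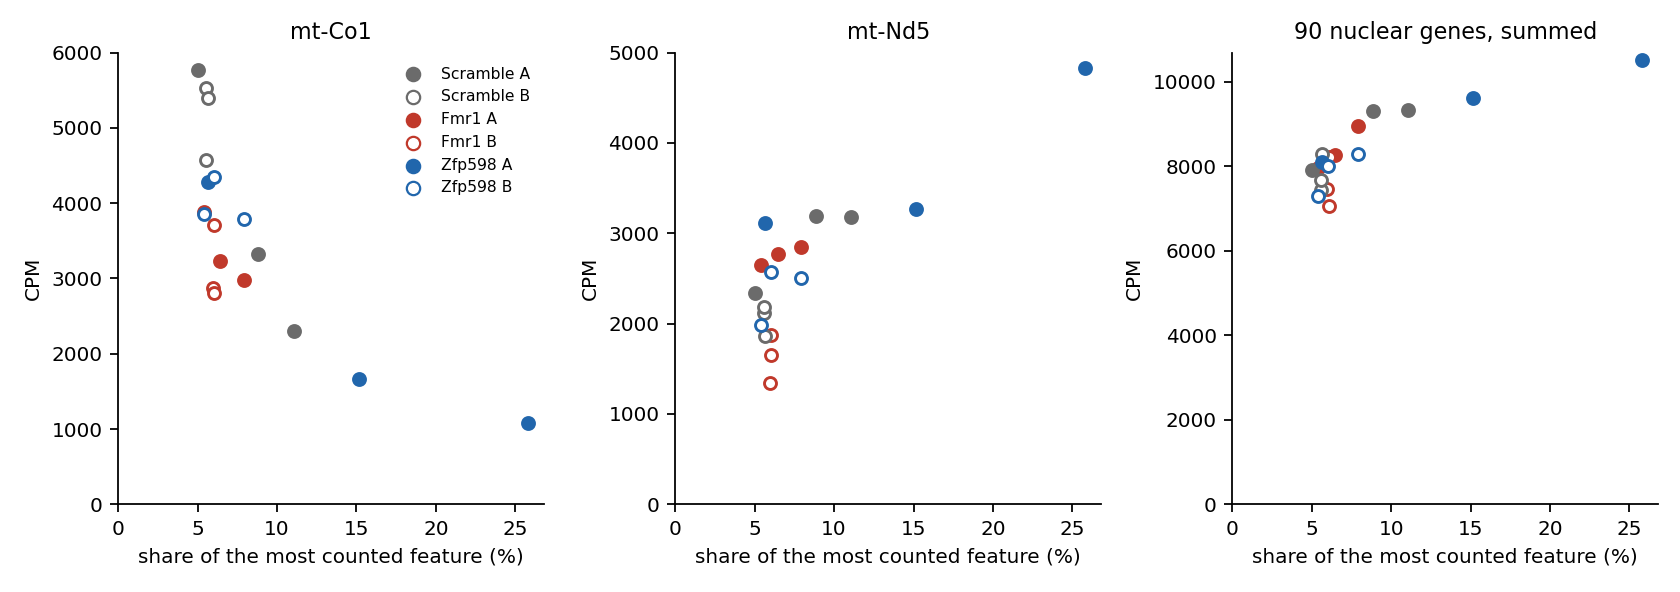
Level in CPM of mt-Co1, of mt-Nd5 and of the summed nuclear members against the percentage of a library's counts in its most counted feature, with 1 point per library, filled for siRNA A and open for siRNA B. The 4 libraries with 8.83 to 25.8% of counts in that feature lie at 3175 to 4826 CPM of mt-Nd5, above the 1339.8 to 3115 CPM of the other 14, which have 5.00 to 7.93%.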

How the data were processed

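RNA-seq was done on 18 N2A libraries, 3 for each of 6 siRNAs. The raw counts per gene deposited by the authors come from exonic featureCounts totals of STAR alignments to GRCm39, made after TrimGalore trimming. The annotation release, strand setting and treatment of multiply aligned reads are not given in the sources used here.

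Genes were matched by identifier to GENCODE M39, which holds 54749 of the 55414 entries (98.8%). Counts were scaled by TMM and tested with edgeR 4.0.16 (quasi-likelihood, R 4.3.3) after filterByExpr with a minimum count of 10 and a minimum total of 15, which kept 17901 genes. Pooled comparisons used 3 conditions (15 residual degrees of freedom) and the others 6 siRNA groups (12), with every library in the fit. The threshold was a Benjamini-Hochberg adjusted p of 0.05. CPM were computed from the deposited counts with TMM-scaled library sizes.

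Members and lists were chosen with earlier results of these data known. Named genes were the mitochondrially encoded members, the extremes of each complex in the pooled comparisons, the 3 called nuclear members with the largest rise and fall in each other comparison, the isoforms, and the extremes of the other lists. Alternatives included DESeq2 1.42.0, other scalings, no filter, a replicate block, other controls and each library left out; 2, on the unannotated feature, were added after seeing the data. The procedure was tested on simulated data. Sequences were read from GRCm39.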

Additional observations from a re-analysis of the deposited data

Results flagged for a closer look

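Among groups of 6 libraries of a condition, 183 over 61 measures were examined for 1 library far from the other 5 by Dixon's criterion, and 10 had one. Chance alone sets about 1 in 20 groups apart. Scramble A1 stood high for Ndufa4l2 (30.0 CPM, the others 5.05 to 14.0), Cox7a1 (7.75 CPM, the others 3.44 to 4.52) and Cox8b (0.529 CPM, the others 0 to 0.146). Zfp598 A1 stood high for Atp5f1c (169 CPM, the others 97.8 to 114) and Zfp598 A3 for Cox6a1 (159.6 CPM, the others 38.6 to 76.6). Zfp598 B2 stood high for Ndufb1 (8.87 CPM, the others 4.98 to 6.40) and Zfp598 B3 for mt-Nd3 (5.79 CPM, the others 1.81 to 2.93), a gene inside the nuclear copy. In Fmr1 KD, Fmr1 A3 was high for Uqcrb (35.5 CPM, the others 23.5 to 27.9) and low for Cox7b2 (19.8 CPM, the others 22.1 to 23.4), and Fmr1 B2 was low for Ndufb2 (10.6 CPM, the others 13.0 to 14.4).

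The 2 siRNAs against a target differed in effect, by the test of the difference itself in edgeR, for 18 results. For Fmr1 the log2 differences, siRNA B minus siRNA A, were 2.89 for Ndufa4l2, 2.30 for Cox4i2, 0.90 for Ndufv2, 0.88 for Sdhb, 0.87 for Cox7c, 0.71 for Uqcr11, 0.45 for Atp5mc3, -0.64 for Atp5mc2 and -1.83 for mt-Co3. For Zfp598 they were 0.90 for Ndufa5, 0.79 for Atp5po, 0.57 for Ndufa12, 0.56 for Ndufv2, 0.39 for Atp5mc3, 0.33 for Sdha, -0.38 for Cox7a2l, -1.23 for Cox7c and -1.58 for Cox6a2. Both Scramble siRNAs enter each of these differences.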

How the results depend on the processing

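Counts of members moved by over 1.5 times under these settings, given as higher then lower. DESeq2 called 2 lower in pooled Fmr1 KD and 3 higher in pooled Zfp598 KD. Without a filter on low counts there were 2 higher in pooled Zfp598 KD, 1 and 11 with Fmr1 siRNA A, 5 and 12 with Fmr1 siRNA B, 9 and 18 with Zfp598 siRNA A, 14 higher with Zfp598 siRNA B, 3 higher between Scramble siRNAs, 10 below 0 in the Fmr1 difference and 11 above 0 in the Zfp598 difference. With the siRNA letter as a term, pooled Zfp598 KD had 2 higher, and with counts summed per siRNA or a change of more than 2-fold required 0 and 0. With only the groups compared in the fit, there were 8 and 13 with Fmr1 siRNA B, 0 and 0 with Zfp598 siRNA A and 22 and 13 with Zfp598 siRNA B. With all Scramble libraries as control, there were 10 higher with Fmr1 siRNA A, 0 and 6 with Fmr1 siRNA B (nuclear median -0.15), 21 higher with Zfp598 siRNA A (nuclear median 0.068) and 4 and 21 with Zfp598 siRNA B (nuclear median -0.14).

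Without the 4 libraries rich in the unannotated feature, there were 4 and 3 in pooled Fmr1 KD, 2 higher in pooled Zfp598 KD, 5 and 9 with Fmr1 siRNA A, 8 and 14 with Fmr1 siRNA B, 0 and 4 with Zfp598 siRNA A, 19 and 14 with Zfp598 siRNA B, 0 and 18 between Scramble siRNAs (nuclear median -0.18) and 6 below 0 in the Fmr1 difference. mt-Nd2 with Zfp598 siRNA A turned to -0.30 there. Scramble A2 and Zfp598 A1 are then lone libraries, so the counts that involve Scramble siRNA A or Zfp598 siRNA A rest on an assumed spread. With the share of that feature as a covariate, there were 1 and 2 in pooled Fmr1 KD, 4 and 10 with Fmr1 siRNA A, 8 and 13 with Fmr1 siRNA B, 17 lower with Zfp598 siRNA A, 17 and 15 with Zfp598 siRNA B, 9 below 0 in the Fmr1 difference and 20 and 5 in the Zfp598 difference. The cause of these moves was not tested.

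Over single libraries left out, the counts ran from 0 to 1 higher and 0 to 1 lower in pooled Fmr1 KD, 1 to 3 and 1 to 4 in pooled Zfp598 KD, 0 to 1 and 4 to 11 with Fmr1 siRNA A (mitochondrial median 0.037 to 0.68), 1 to 5 and 0 to 6 with Fmr1 siRNA B, 0 to 21 and 2 to 18 with Zfp598 siRNA A, 3 to 12 and 4 to 10 with Zfp598 siRNA B, 0 to 2 and 11 to 41 between Scramble siRNAs, 4 to 7 and 0 to 6 in the Fmr1 difference (mitochondrial median -1.21 to -0.49) and 3 to 14 and 1 to 7 in the Zfp598 difference.

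Library numbers were not taken to pair the samples, since not every pair was over 0.1: deviations of same-numbered libraries correlated at -0.40 to 0.34, over 0.1 in 16 of 45 pairs. The same number correlated best in 23 of 45 cases, where chance gives 1 in 3, so a pairing was not settled by the data. With the replicate number as a block, pooled Zfp598 KD had 1 lower in place of 3. For single members, 4213 values under alternatives stayed on their side of the threshold or had no adjusted p. A further 296 lost the call, 16 gained it and 1 reversed. A change of direction was counted only where the main or the alternative fit made a call, so uncalled values that changed sign are among the 4213. Over all settings and comparisons, the median of all genes lay between -0.04 and 0.06, with the upper end in the fit without a filter on low counts. With 3 libraries a siRNA, genes at a few counts, among them those inside the nuclear copy, carry little information.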
